A study of Homo sapiens with 6 samples.

Results

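The 6 chemokine genes described here, in A375 melanoma cells, are CXCL8, CXCL1, CXCL2, CXCL3, CCL2 and CCL20. They were taken by name, as every probe set that the platform annotation pairs with exactly 1 of these symbols, which gave 11 of 49293 probe sets and 6 of 18132 genes. The genes were proposed with the difference between knockdown and control already known, so that difference is given for them as a description, without a test of its own.

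The knockdown cells were A375 cells that stably express a short hairpin RNA directed at MAP4K5 (3 arrays), and the control cells were A375 cells described without a knockdown (3 arrays). A375 is a human melanoma cell line, and MAP4K5 is a germinal centre kinase that acts upstream of JNK. All arrays are labelled as biological replicates of total RNA from untreated cultures. The labels give neither the hairpin sequence, nor the number of hairpins or clones, nor any vector in the control cells. Loss of MAP4K5 and other consequences of deriving a stable line therefore cannot be told apart. Nothing says how the cultures were kept separate, and p-values cover only the scatter among these arrays, which may be technical.

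Chemokines are small secreted proteins that guide leukocytes through G protein-coupled receptors. CXCL1, CXCL2, CXCL3 and CXCL8 attract neutrophils through CXCR2, and CXCL8 also through CXCR1. CXCL1 was first purified from melanoma cells as a growth-stimulating activity. CCL2 attracts monocytes through CCR2, and CCL20 attracts CCR6-bearing lymphocytes and dendritic cells. In many cell types NF-kB and AP-1 transcription factors switch these genes on together after interleukin-1 or TNF, and their messengers are short-lived.

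The stretches just before the start sites of 5 of the 6 genes are shown because the known kB and AP-1 elements of this family lie there (RefSeq, GRCh38.p14; 150 bases before the annotated start, 5′ to 3′ on the gene's strand). CCL2 has no entry in the promoter table. Capitals mark matches on either strand to the NF-kB consensus, to the kB core GGAATTTCC or to the AP-1 element TGANTCA. The kB core was picked because the CXCL8 site has it.
CXCL8 (chr4:73740419-73740568, plus strand): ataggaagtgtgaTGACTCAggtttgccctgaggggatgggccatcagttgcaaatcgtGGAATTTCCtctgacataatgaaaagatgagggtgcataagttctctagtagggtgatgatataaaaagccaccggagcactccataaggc
CXCL1 (chr4:73869243-73869392, plus strand): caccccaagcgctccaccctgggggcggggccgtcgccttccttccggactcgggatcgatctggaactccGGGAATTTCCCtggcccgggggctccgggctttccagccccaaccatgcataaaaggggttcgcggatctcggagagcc
CXCL2 (chr4:74099196-74099345, minus strand): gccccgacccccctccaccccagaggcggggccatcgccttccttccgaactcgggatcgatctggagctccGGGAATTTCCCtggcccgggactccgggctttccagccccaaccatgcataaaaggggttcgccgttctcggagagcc
CXCL3 (chr4:74038690-74038839, minus strand): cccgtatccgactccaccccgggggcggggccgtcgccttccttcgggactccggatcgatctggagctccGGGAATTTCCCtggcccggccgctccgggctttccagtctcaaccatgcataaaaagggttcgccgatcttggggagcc
CCL20 (chr2:227813692-227813841, plus strand): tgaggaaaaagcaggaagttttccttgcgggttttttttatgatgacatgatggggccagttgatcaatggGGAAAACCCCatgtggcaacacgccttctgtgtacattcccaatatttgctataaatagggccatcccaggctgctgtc

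CXCL1, CXCL2 and CXCL3 share nearly the whole stretch: 88.8% of aligned positions were identical between CXCL1 and CXCL2, 88.1% between CXCL1 and CXCL3 and 86.3% between CXCL3 and CXCL2. Between CXCL8 and these 3 genes identity was 44.0% to 47.1%. The kB core stands in all 4 CXC genes, 91 to 83 bases before the start in CXCL8 and 78 to 70 bases before it in CXCL1 and CXCL3, and in 0.253% of 35116 promoter stretches of the same length. In CXCL1, CXCL2 and CXCL3 it lies inside a match to the NF-kB consensus. CCL20 has a consensus match of another sequence, 79 to 70 bases before its start. The consensus occurs in 6.19% of all stretches. TGANTCA was found in CXCL8, 137 to 131 bases before the start, and in 4.17% of all stretches. These are matches of letters and do not show binding.

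As a check of the labels, MAP4K5 measured 19.7, 18.8 and 20.3 in the knockdown arrays, against 77.7, 78.1 and 76.3 in the control arrays at its brightest probe set. Values here are the deposited RMA intensities on a linear scale, and log2 differences are knockdown minus control. The MAP4K5 difference was -1.98 ± 0.08 (SE, limma adjusted p = 2.9e-05), and an exact two-sided permutation test gave p = 0.1 at each of its 3 probe sets, the lowest value this number of arrays can reach. Control replicate 2 stood apart: over all genes it correlated with the knockdown arrays at 0.993 to 0.994 and with controls 1 and 3 at 0.992. Of the melanoma markers, SOX10, MITF, S100B, MIA and PRAME were measured at 22.1 or more in every array, while PMEL, MLANA, TYR and TYRP1 did not exceed 3.90 in any. Of the 9 melanoma markers measured, limma called 1 higher in knockdown, MITF (0.99 ± 0.16 SE, adjusted p = 0.0114), and 3 lower, S100B (-1.31 ± 0.15, adjusted p = 0.00256), MIA (-0.85 ± 0.17, adjusted p = 0.0244) and SOX10 (-0.54 ± 0.11, adjusted p = 0.0286). Over all genes limma called 3.70% higher and 4.13% lower in knockdown. S100B was called in all 6 fits that left out 1 array, MIA only without control 2, and MITF in no fit that left out a knockdown array. The outcome of these fits is not given here for SOX10. The list summed to 436 to 461 in knockdown and 522 to 668 in control arrays. Of 9 measured leukocyte markers, LYZ rose (10.3, 10.1 and 11.1 in knockdown arrays, 4.89, 6.53 and 4.78 in control arrays, limma log2 difference 0.97, adjusted p = 0.00491, and 0.45, adjusted p = 0.0419, without _x_at and _s_at probe sets), the defining marker PTPRC lay between 2.15 and 2.42, and the list summed to 40.6 to 41.4 in knockdown and 33.0 to 37.3 in control arrays. Of 10 fibroblast and endothelial markers limma called 0 and 1 reached an unadjusted p under 0.05, PDGFRB (5.35 to 7.64 in knockdown and 7.38 to 8.56 in control arrays, log2 difference -0.35, adjusted p = 0.16), and the list summed to 39.3 to 45.2 in knockdown and 40.6 to 42.8 in control arrays. An unadjusted limma p under 0.05 was reached by 5 of the 9 melanoma markers and 2 of the 9 leukocyte markers. The part of any of these markers in the chemokine values was not tested.

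CXCL8, which encodes interleukin-8, was lower in every knockdown array than in every control array at all 3 of its probe sets. At the brightest (11718841_s_at) it measured 80.4, 84.7 and 81.1 in knockdown cells, against 161, 123 and 145 in control cells. The means were 82.1 ± 2.30 in knockdown and 143 ± 19.2 in control cells (SD, n = 3 each). The log2 difference was -0.79 ± 0.11 (SE), which puts knockdown cells at 57.8% of the control level. In bulk RNA, fewer cells that express a gene and less RNA per cell cannot be told apart.

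The second CXCL8 probe set (11754026_a_at) measured 5.73, 5.40 and 4.25 in knockdown cells, against 10.4, 10.6 and 12.7 in control cells. The third (11763226_x_at) measured 6.27, 6.15 and 5.59 in knockdown cells, against 8.64, 9.94 and 11.0 in control cells. All 3 probe sets therefore separate the groups, with log2 differences of -1.13 ± 0.13 (SE) at 11754026_a_at and -0.71 ± 0.11 (SE) at 11763226_x_at. The knockdown values at these dimmer probe sets lie under the median gene intensity of 8.68. The order of the controls is not shared: control 2 was the lowest of the controls at the brightest probe set and in the middle at the dimmer ones.

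CXCL1, the melanoma growth-stimulating chemokine, was lower in knockdown cells at its brighter probe set and overlapped at the other. Probe set 11719366_s_at measured 80.4, 88.3 and 83.8 in knockdown cells, against 104, 139 and 116 in control cells (means 84.2 ± 3.97 and 120 ± 17.4, SD, n = 3 each). Here the groups did not overlap, and control 2 was the highest array. Probe set 11754114_a_at measured 34.1, 38.8 and 36.3 in knockdown cells, against 44.4, 49.5 and 38.6 in control cells. Control 3 lay just under knockdown replicate 2 there, so the groups overlap. The log2 differences were -0.50 ± 0.12 at the brighter probe set and -0.27 ± 0.11 at the other (SE), and IDs ending in _s_at or _x_at can bind several transcripts.

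**Figure D1:**
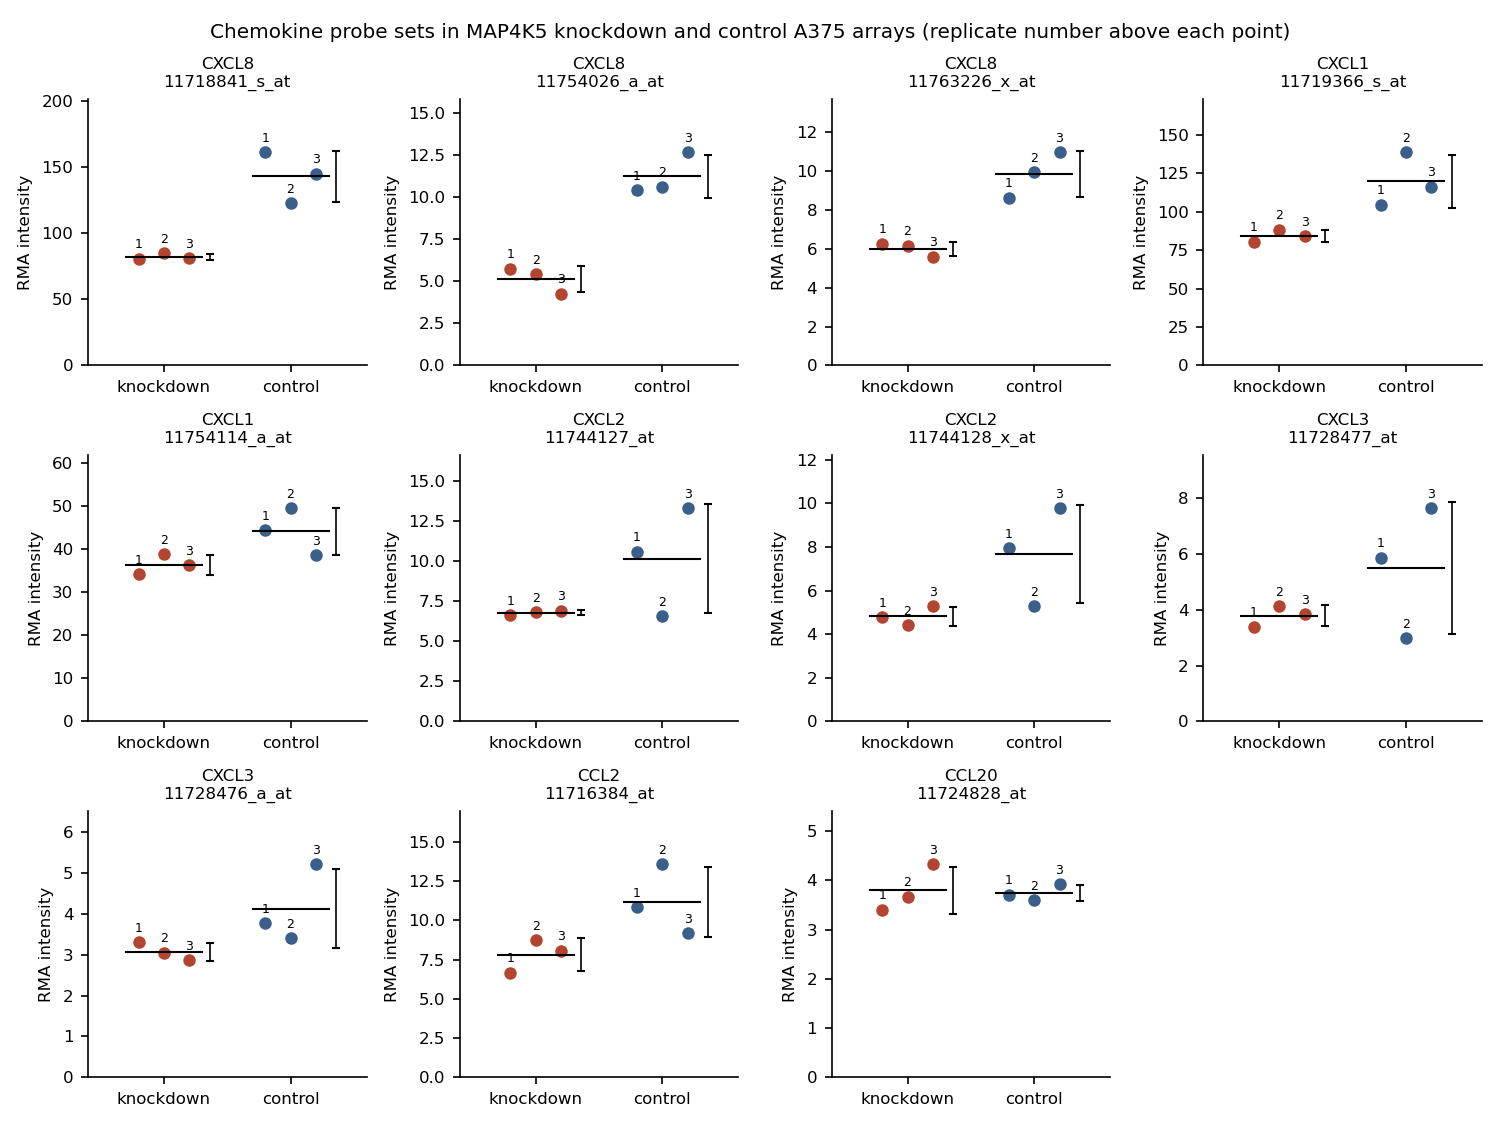
RMA intensity of the 11 chemokine probe sets, with knockdown arrays in red on the left of each panel and control arrays in blue on the right, replicate numbers above the points, a line at the mean of 3 arrays and a bar of 1 SD beside it. All CXCL8 panels separate the groups, whereas control 2 falls to the knockdown arrays in the CXCL2 panels (6.58 and 5.29) and below them in 1 CXCL3 panel (2.98).

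CXCL2 and CXCL3, close relatives of CXCL1 that act through the same receptor, showed a different arrangement: controls 1 and 3 were high, and control 2 lay with the knockdown arrays. CXCL2 (11744127_at) measured 6.61, 6.79 and 6.91 in knockdown cells, against 10.6, 6.58 and 13.3 in control cells. Its other probe set (11744128_x_at) measured 4.77, 4.41 and 5.29 in knockdown cells, against 7.94, 5.29 and 9.78 in control cells. At both, control 2 reached no higher than the highest knockdown array, and all knockdown values lie under the median gene intensity of 8.68. The log2 differences were -0.53 ± 0.22 and -0.63 ± 0.20 (SE), with SDs among the controls of 0.52 and 0.45 on the log2 scale, against 0.03 and 0.13 among the knockdown arrays.

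CXCL3 (11728477_at) measured 3.40, 4.14 and 3.84 in knockdown cells, against 5.88, 2.98 and 7.65 in control cells, so control 2 was the lowest of all 6 arrays. Probe set 11728476_a_at measured 3.31, 3.04 and 2.86 in knockdown cells, against 3.76, 3.40 and 5.21 in control cells, and there the groups did not overlap. The log2 differences were -0.44 ± 0.29 and -0.40 ± 0.15 (SE). All CXCL3 values lie under 8.68, the median gene intensity, in the range where RMA compresses folds. Without detection calls, levels as low as those in the knockdown arrays cannot be told from background.

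CCL2, the monocyte attractant, was lower in every knockdown array, but by a narrow gap. It measured 6.68, 8.74 and 8.06 in knockdown cells, against 10.8, 13.6 and 9.18 in control cells, at its single probe set. Knockdown replicate 2 and control 3 lay closest, and control 2 was the highest array, as for CXCL1. The log2 difference was -0.51 ± 0.16 (SE).

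CCL20, the ligand of CCR6, showed no separation. It measured 3.40, 3.67 and 4.33 in knockdown cells, against 3.71, 3.59 and 3.92 in control cells, a log2 difference of 0.02 ± 0.11 (SE). The control arrays all lay inside the range of the knockdown arrays. At such low intensities, and with no detection calls among the values used here, a level cannot be told from background.

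Every knockdown array lay below every control array at 6 of the 11 probe sets and, by the brightest probe set of each gene, in 3 of the 6 genes (CXCL8, CXCL1 and CCL2); this held for 11.8% of all probe sets and 13.2% of all genes. In the fit across all genes, limma called 2 of the 6 lower (CXCL8 and CXCL1) at an adjusted p under 0.05, as it did 4.13% of all genes. In the fit across all probe sets it called 4 of the 11 lower, the 3 of CXCL8 and 1 of CXCL1, against 2.50% of all probe sets. Because the genes were chosen on this contrast, nothing is read from these shares. The median log2 difference was -0.50 over the 6 genes and 0.01 over all genes.

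The calls depended on single arrays. Without control 2, limma called 4 of the 6 genes lower, CXCL2 (-0.81) and CXCL3 (-0.83) besides CXCL8 (-0.90) and CXCL1 (-0.39), while the share of all genes called lower was 10.1%. Without control 3, or without any 1 knockdown array, CXCL8 was the only one of the 6 called. Over the 6 gene fits that each left out 1 array, CXCL8 ranged from -0.90 to -0.70 and was called in all 6. CXCL1 ranged from -0.59 to -0.39 and was called in 2. In the 6 such fits across all probe sets, CXCL8 was called in 4 at 11718841_s_at and in 3 at 11763226_x_at. It was called in all 6 at 11754026_a_at, and CXCL1 was called in 1 at 11719366_s_at. These fits reuse the contrast on which the genes were chosen, so the calls show only how far each depends on single arrays. CXCL2 ranged from -0.81 to -0.30, CXCL3 from -0.83 to -0.15, CCL2 from -0.64 to -0.36 and CCL20 from -0.08 to 0.09.

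Comparing the knockdown mean with single control arrays, a step added after the controls were seen to differ and given without a test, divides the genes into those that keep their difference against control 2 and those that do not. CXCL8 stood at -0.58, CXCL1 at -0.72 and CCL2 at -0.80 against control 2 at the brightest probe set of each. CXCL2 stood at 0.04 and CXCL3 at 0.34 against the same array. Against control 3 alone the differences of CXCL2 and CXCL3 were -0.97 and -1.02, and that of CCL2 was -0.24. CXCL1 thus stood with CXCL8 and CCL2 in these values, which rest on control 2 and on the brightest probe set of each gene. At the other CXCL3 probe set control 2 lay above every knockdown array (3.40 against 2.86 to 3.31).

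**Figure D2:**
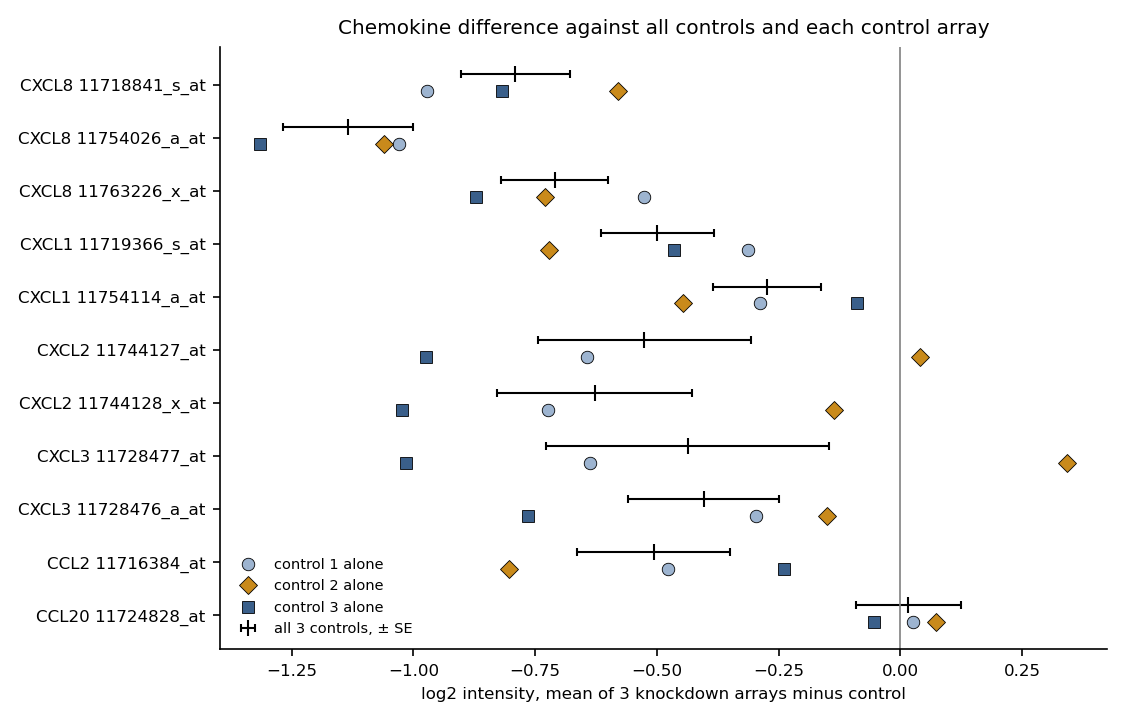
Difference in log2 intensity for each chemokine probe set, as the mean of 3 knockdown arrays minus all 3 controls (black bars, ± SE of the limma fit across all probe sets) and minus each control array alone (symbols). The diamonds of control 2 lie near or right of 0 for CXCL2 (0.04 and -0.14) and CXCL3 (0.34 and -0.15), and between -1.06 and -0.45 for CXCL8, CXCL1 and CCL2.

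Of genes whose profile over the 6 arrays was most like a chemokine's, by the root mean square (RMS) difference in log2 level after centring each gene on its mean, EPHA3 (0.05) and FAM216A (0.06) were nearest to CXCL8. DDAH1 and LCORL (0.05 each) were nearest to CXCL1, and PLAGL1 (0.07) and PCDHB6 (0.08) to CCL2. WDR45 (0.04) and ZNF419 (0.05) were nearest to CXCL2, and FHL2 and SLC1A5 (0.10 each) to CXCL3. The neutral amino acid transporter gene SLC1A5 measured 77.6, 83.3 and 76.8 in knockdown cells, against 139, 67.9 and 153 in control cells, which places control 2 with the knockdown arrays as for CXCL3. The ephrin receptor gene EPHA3 measured 40.6, 41.8 and 41.9 in knockdown cells, against 84.5, 64.7 and 79.4 in control cells. CCL20 spanned less than 0.5 on the log2 scale and was not matched.

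The 4 CXC genes lie in 1 cluster on chromosome 4, in the order CXCL8, CXCL6, PF4V1, CXCL1, PF4, PPBP, CXCL5, CXCL3 and CXCL2 among protein-coding genes. The 5 neighbours that are not described above were measured at low intensity in all arrays. CXCL6, which also attracts neutrophils, measured 2.76, 2.72 and 2.30 in knockdown cells, against 4.77, 2.53 and 2.58 in control cells. PF4V1, PF4, PPBP and CXCL5 lay between 1.99 and 4.32 in all arrays, and limma called none of the 5 neighbours (adjusted p = 0.423 to 0.896).

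Other chemokine genes and the receptors were largely not called. Of 14 other CXC, CX3C and XC chemokines limma called 0, and 0 reached an unadjusted p under 0.05. CXCL14 had the smallest p (6.54, 5.58 and 6.83 in knockdown, 8.91, 13.2 and 6.31 in control cells, log2 difference -0.53 ± 0.23 SE, adjusted p = 0.221). Of 19 other CC chemokines 1 fell, CCL28, a mucosal chemokine, with 4.55, 4.94 and 5.47 in knockdown and 7.16, 6.49 and 6.81 in control cells (-0.45 ± 0.09 SE, limma adjusted p = 0.0274). CCL28 was not called without _x_at and _s_at probe sets (-0.40, adjusted p = 0.054). Among the 19 CC chemokines, an unadjusted limma p under 0.05 was reached by 3. Of 21 receptors limma called 0, and 0 reached an unadjusted p under 0.05. CCR8 had the smallest p (2.32, 2.38 and 2.54 in knockdown, 2.80, 2.93 and 2.51 in control cells, adjusted p = 0.263). CXCR2, the receptor of the neutrophil attractants, measured 2.33 to 2.65 in knockdown and 2.54 to 2.67 in control arrays, and CXCR1, CCR2 and CCR6 did not exceed 3.15 in any array. The 21 receptors together summed to 65.0 to 68.5 in each array, and most of the other chemokines were as dim. Without detection calls such levels cannot be told from background, so the lack of calls does not show a lack of change. Over all genes 7.83% were called, 3.70% higher and 4.13% lower in knockdown.

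The part of the listed regulators and inducers in the chemokine values was not tested. Among the regulators, TNFAIP3, a ubiquitin-editing enzyme that restrains NF-kB, was higher in knockdown cells. It measured 27.5, 31.4 and 27.5 in knockdown cells, against 8.25, 9.76 and 8.95 in control cells (log2 difference 1.68 ± 0.10 SE, limma adjusted p = 0.000204), and control 2 lay with the other controls. Without _x_at and _s_at probe sets the difference was 1.09 (adjusted p = 0.0112). NFKB1, which encodes the p50 subunit and its precursor, measured 78.3, 80.3 and 79.6 in knockdown cells, against 121, 97.5 and 130 in control cells (-0.54 ± 0.11 SE, adjusted p = 0.0287). TRAF1, an adaptor and target of the pathway, fell by 0.46 ± 0.10 (SE, adjusted p = 0.029), but stood at -0.22, adjusted p = 0.159, as the mean of its 3 probe sets. Of 20 measured subunits, kinases and inhibitors 1 rose, 2 fell and 17 were not called, with a median of -0.10. In this list 8 genes reached an unadjusted limma p under 0.05. The share of all genes at that unadjusted p is not given here. Over all genes limma called 3.70% higher and 4.13% lower.

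Of 16 AP-1, CEBP and JNK pathway genes 0 rose and 2 fell, where limma called 3.70% of all genes higher and 4.13% lower. Among these 16, an unadjusted limma p under 0.05 was reached by 8. CEBPD, a transcription factor of acute inflammation, measured 61.2, 57.4 and 65.6 in knockdown cells, against 109, 94.1 and 104 in control cells (-0.74 ± 0.09 SE, limma adjusted p = 0.00431). It was still called as the mean of its 5 probe sets (-0.48, adjusted p = 0.012). However, it stood at -0.17, adjusted p = 0.511, once probe sets with the suffix _x_at or _s_at were left out. ATF2, a target of JNK and p38, fell by 0.40 ± 0.10 (SE, adjusted p = 0.0476), and stood at 0.08 without those probe sets and at -0.14, adjusted p = 0.324, as an average over its probe sets. Of 13 measured factors of messenger decay and stability 1 fell, the exonuclease gene XRN1, and 2 reached an unadjusted limma p under 0.05. XRN1 measured 44.9, 47.2 and 47.8 in knockdown cells, against 67.7, 71.5 and 70.3 in control cells (-0.58 ± 0.08 SE, limma adjusted p = 0.00511). As the mean of its 4 probe sets it stood at -0.36, still called.

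Of 24 inducing cytokines, receptors and adaptors 2 rose and 1 fell, beside 3.70% of all genes called higher and 4.13% called lower. Among these 24, an unadjusted limma p under 0.05 was reached by 6. IL1RAP, the accessory chain of the interleukin-1 receptor, fell by 0.87 ± 0.18 (SE, limma adjusted p = 0.0286), with 23.6, 23.3 and 22.6 in knockdown and 48.3, 30.4 and 51.8 in control cells. The mean of its 4 probe sets differed by -0.36 (adjusted p = 0.0531). IL18, a cytokine of the interleukin-1 family read only by a probe set ending in _x_at, rose by 0.98 ± 0.19 (SE, adjusted p = 0.0203), and the adaptor kinase gene IRAK1 rose by 0.38 ± 0.08 (SE, adjusted p = 0.0318). TNF itself measured 2.80 to 3.07 in knockdown and 2.91 to 2.99 in control arrays. TNFAIP3, CEBPD and XRN1 were called in all 6 fits that left out 1 array. NFKB1, IL1RAP, ATF2, CCL28 and IRAK1 were called only in the fit without control 2, TRAF1 only without control 2 or knockdown 3, and IL18 only without control 1 or 2.

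**Figure D3:**
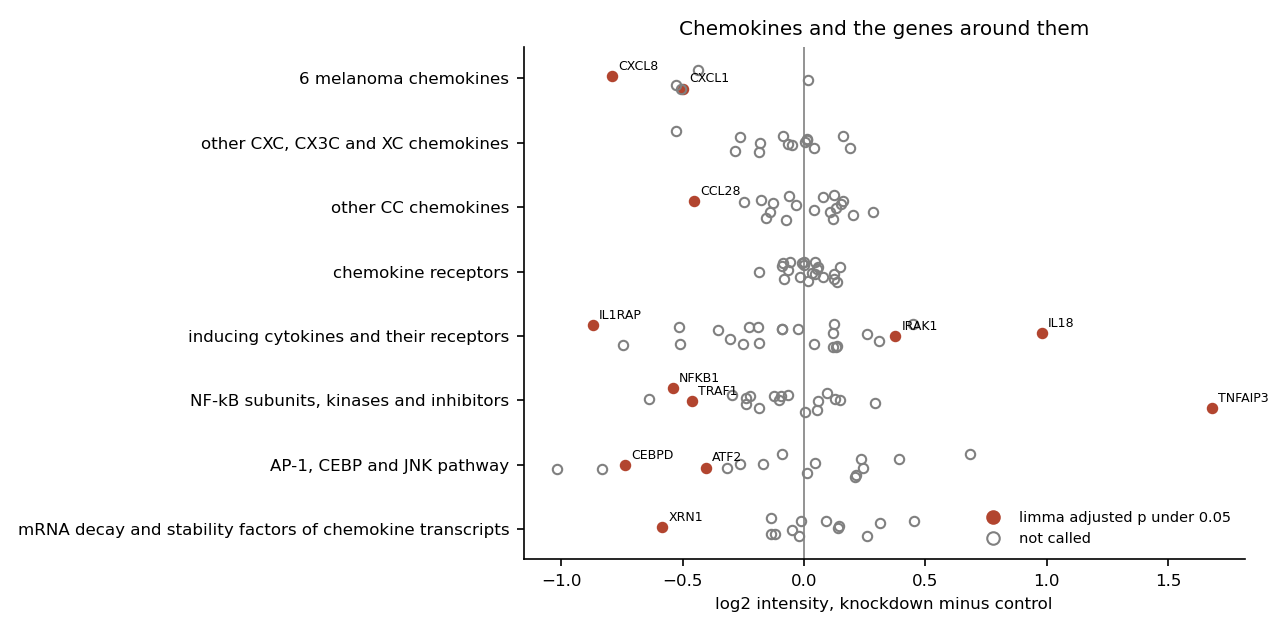
Log2 difference, knockdown minus control, of the 6 chemokines and of each measured gene in 7 lists around them, 1 probe set a gene; filled red points passed limma at an adjusted p under 0.05 and open points did not. TNFAIP3 stands farthest to the right at 1.68, and CXCL8 farthest to the left among the 6 chemokines at -0.79.

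**Figure D4:**
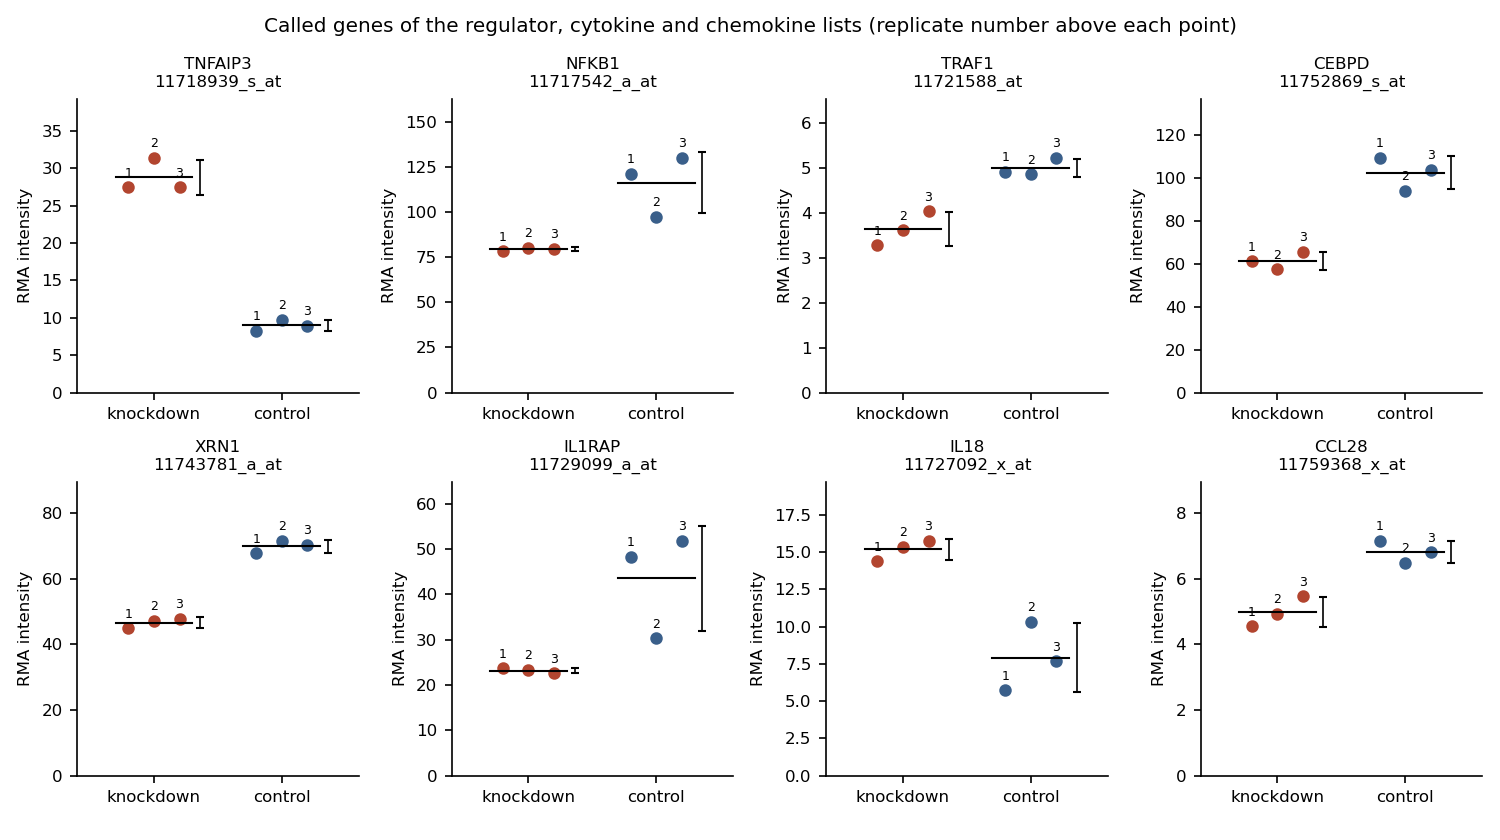
RMA intensity of 8 called genes of these lists, with knockdown arrays in red on the left and control arrays in blue on the right of each panel, replicate numbers above the points, a line at the mean of 3 arrays and a bar of 1 SD. TNFAIP3 lies between 27.5 and 31.4 in knockdown arrays and between 8.25 and 9.76 in control arrays. The groups do not overlap in any of the 8 panels, which nearly follows from the choice of called genes and is no separate result.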

How the data were processed

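The deposited values of the 6 Affymetrix arrays are linear intensities, 1 per probe set and array. The submitters' processing notes name RMA, which removes background, equalises the distributions of the arrays by quantiles and combines the probes of each set. No version or annotation build was given for it in the sources used here. Array medians were 4.85 to 4.94. The number of arrays limits the precision.

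Log2 was taken without a pseudocount. Of 49293 probe sets, 44988 had 1 gene symbol, 1832 several and 2473 none. Each gene was read by its probe set with the highest mean over 6 arrays (18132 genes). Groups were compared with limma 3.58.1 in R 4.3.3 (lmFit, eBayes, Benjamini-Hochberg over all genes or all probe sets), tested on simulated data. Python 3.11.15, pandas 2.3.3, scipy 1.17.1, biopython 1.88 and matplotlib 3.10.9 served for the rest. Promoters came from RefSeq (GRCh38.p14).

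The 6 genes and the gene lists, written from general knowledge, were chosen with earlier results of these data known. Of each list, up to 2 called genes that rose most and 2 that fell most were named, or the gene with the smallest p if none was called, and for each chemokine spanning at least 0.5 the 2 genes of nearest profile. Others were named after their values were seen. Alternatives were a replicate block, an intensity trend, array weights, 2 rescalings, log2(intensity + 8), filters on dim genes, other choices of probe set, and leaving out each array.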

Additional observations from a re-analysis of the deposited data

How the results depend on the processing

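Leaving out 1 array moved the counts most: 143 to 1902 genes higher and 181 to 1830 lower in knockdown (671 and 749 with all arrays), 157 to 2962 probe sets higher and 203 to 3165 lower (893 and 1124), 1 to 4 of the 6 chemokine genes lower (2), and 1 to 8 listed pathway genes higher and 2 to 20 lower (3 and 7). The highest counts came from leaving out control 2. Array weights gave 1567 genes higher and 1536 lower, 2002 probe sets higher and 2335 lower, and 7 listed pathway genes higher and 15 lower, and CXCL2 (-0.69) was called besides CXCL8 and CXCL1. Averaging each gene over its probe sets gave 1 chemokine gene lower. With _x_at and _s_at probe sets left out, 1 chemokine gene (CXCL8) and 4 listed pathway genes were called lower, and ATF2 stood at 0.0759, opposite in sign. MAP4K5 kept its call and direction under every alternative run. With the replicate number as a block, 518 genes were higher and 670 lower, and CXCL8 and CXCL1 were again the 2 chemokines called, while IRAK1 (adjusted p = 0.0618) and ATF2 (0.0638) lost their calls. With log2(intensity + 8), which shrinks the folds of dim genes, IL1RAP (adjusted p = 0.0646) and MIA (0.0521) lost theirs, and CXCL2, CXCL3 and CCL2 stood at -0.28, -0.18 and -0.27. With arrays shifted to a common median ATF2 lost its call (0.0514). The labels do not say whether arrays with the same number were made together. Deviations of same-numbered arrays from their group means correlated at -0.08, 0.02 and 0.06 across genes. Not every array correlated best with its own number. With so few arrays a group and control 2 standing apart, these correlations cannot decide whether the arrays are paired. The lowest 50% of genes by mean held CXCL2, CXCL3 and CCL20, which have no value under that filter.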

Other observations

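A probe set annotated to both CXCL1 and CXCL2, left out above, measured 18.0, 17.9 and 17.8 in knockdown cells, against 24.2, 19.8 and 20.4 in control cells. Its log2 difference was -0.26, and its ID ends in _x_at, so it cannot be assigned to either gene. Every knockdown array lay below every control array there, as at 11.8% of all probe sets with 1 gene symbol.

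Several listed inducers and regulators, named here after their values were seen and not called by limma, had control 2 near or below the knockdown arrays, as CXCL2 and CXCL3 did. This is not particular to them. Over all genes the SD of the log2 difference of control 2 was 0.272 to 0.283 from the knockdown arrays. From controls 1 and 3 it was 0.318 and 0.317. The share of all genes with this pattern is not given here. The interleukin-1 gene IL1A measured 19.5, 19.2 and 21.1 in knockdown cells, against 36.7, 16.1 and 38.5 in control cells (log2 difference -0.51 ± 0.29 SE). IL1B measured 21.9, 25.3 and 28.6 in knockdown cells, against 38.0, 21.9 and 39.7 in control cells. LIF, a cytokine of the interleukin-6 family, measured 67.9, 63.7 and 65.1 in knockdown cells, against 140, 67.6 and 139 in control cells. ATF3, a stress-induced transcription factor, measured 11.4, 10.0 and 11.7 in knockdown cells, against 31.6, 8.02 and 29.8 in control cells. CEBPB, a transcription factor of inflammatory genes, measured 108, 106 and 106 in knockdown cells, against 268, 131 and 285 in control cells. Here control 2 lay above every knockdown array and below the other controls. The log2 difference of CEBPB was -1.02 ± 0.26 (SE, limma adjusted p = 0.0502), just short of a call.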
